A study of Mus musculus with 13 samples.

Results

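The genes described here encode the cholesterol synthesis pathway and its control by SREBP-2, in the liver of mice made diabetic with streptozotocin. They were chosen by name, from knowledge of the pathway and with earlier results of these data known, as 28 genes in 3 roles. Of the 28, 26 were found among the 19938 singly named genes of the array. The other two, Acat2 and Soat2, had no probe set that names only them in the annotation used here. The STZ group held 6 male C57BL/6N wild-type mice that received 65 mg/kg streptozotocin by intraperitoneal injection on 5 consecutive days. The control group held 7 male C57BL/6N wild-type mice that were mock-injected with citrate buffer, per the sample labels. The series' own design text describes the controls by a standard diet instead, and what either group was fed is not stated further. Injections were given at 10 to 16 weeks of age. The livers came from mice killed 9 to 11 weeks after that, when they were 5 to 6 months old. Streptozotocin is an alkylating glucose analogue that kills insulin-producing beta cells. The labels state neither how many beta cells remained nor the glucose and insulin of each mouse. Total RNA of each mouse was hybridised to 1 Affymetrix mouse gene array, and the labels call the arrays of a group biological replicates.

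Cells build cholesterol from acetyl-CoA. The early, mevalonate part of the pathway makes isoprenoid diphosphates, which also feed protein prenylation, ubiquinone and dolichol, and the late part starts at squalene and trims lanosterol to cholesterol. Nearly all of the enzymes are transcribed under SREBP-2, a membrane-bound transcription factor. Scap escorts it out of the endoplasmic reticulum for cleavage when sterols are low, and Insig proteins hold it back when sterols are high. In liver the same enzymes also answer to feeding and insulin.

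Values are log2 intensities, so a difference of -1 is a halving of the measured signal. The liver-defining transcripts in a list of 7 measured hepatocyte markers had a summed log2 level of 16.02 to 16.06 in STZ livers, against 15.98 to 16.08 in control livers. Of these 7, Apoa1 (-0.23) and Ttr (-0.18) fell and Cps1 (0.16) rose. The summed level of 9 Kupffer cell and macrophage markers was 12.31 to 12.99 in STZ livers, against 12.17 to 12.56 in control livers. In limma 5 of these 9 rose at an adjusted p under 0.05. Among all 19938 genes 5.09% rose and 4.04% fell at that threshold. The 2 measured red cell markers summed to 8.46 to 10.40 in STZ livers, against 10.54 to 10.86 in control livers. Alas2 fell by 1.58 on the log2 scale, while Slc4a1 (-0.05) did not pass. The part of these differences in the results below was not tested. Bulk liver RNA cannot tell fewer cells of a type from less RNA per cell. Igfbp1, which insulin represses, was 8.94 to 11.22 in STZ livers and 7.08 to 8.81 in control livers, with no overlap. STZ replicate 2 stood apart from the other STZ livers for most pathway genes, and results are therefore also given without it.

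Promoters are shown first, because SREBP-2 acts there. RefSeq's table of promoters for GRCm38.p6, running from 250 bases before to 50 bases after each annotated start, held 21 of the 26 measured genes. It was searched on both strands for TCACNCCA, the core of a sterol regulatory element. The search also covered CCAAT, the box bound by NF-Y, and GGGCGG, the GC box bound by Sp1, which act together with SREBP proteins. TCACNCCA occurred in 3 of the 21 genes, Hmgcs1, Msmo1 and Srebf2, and in 4.97% of the 27025 genes of the table (4.36% of its 32851 promoters, since a gene can have several). CCAAT occurred in 20 of the 21 genes and in 41.1% of all genes (37.4% of promoters). GGGCGG occurred in 19 of the 21 genes and in 38.2% of all genes (35.7% of promoters). None of the 8 genes with a promoter here that fell in STZ livers held TCACNCCA, while 7 of these 8 held CCAAT. These are matches of letters in a short window and not measured sites.
The promoters with TCACNCCA, in capitals, are those of Hmgcs1 (chr13:119690101-119690400, plus strand), Msmo1 (chr8:64733529-64733828, minus strand) and Srebf2 (chr15:82147019-82147318, plus strand).
Hmgcs1: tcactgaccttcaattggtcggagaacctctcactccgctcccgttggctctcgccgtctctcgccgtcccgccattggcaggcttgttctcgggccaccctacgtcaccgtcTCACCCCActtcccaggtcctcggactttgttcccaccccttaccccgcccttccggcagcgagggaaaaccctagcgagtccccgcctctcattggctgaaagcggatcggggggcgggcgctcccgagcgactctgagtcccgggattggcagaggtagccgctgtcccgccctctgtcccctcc
Msmo1: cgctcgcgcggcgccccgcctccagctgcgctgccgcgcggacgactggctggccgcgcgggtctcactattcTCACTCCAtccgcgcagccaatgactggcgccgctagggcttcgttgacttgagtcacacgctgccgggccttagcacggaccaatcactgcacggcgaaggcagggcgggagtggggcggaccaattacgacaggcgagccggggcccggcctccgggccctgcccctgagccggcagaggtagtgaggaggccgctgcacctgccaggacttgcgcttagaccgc
Srebf2: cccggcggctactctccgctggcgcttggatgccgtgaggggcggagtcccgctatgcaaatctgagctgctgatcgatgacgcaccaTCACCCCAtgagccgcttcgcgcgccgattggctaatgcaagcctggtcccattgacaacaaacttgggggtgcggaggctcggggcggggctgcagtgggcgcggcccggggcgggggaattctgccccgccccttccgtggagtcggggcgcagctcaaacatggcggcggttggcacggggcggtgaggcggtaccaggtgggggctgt
Next are 3 genes that fell with no overlap between the groups and have no TCACNCCA in this window, with CCAAT or its reverse complement in capitals. They are Insig1 (chr5:28071162-28071461, plus strand), Sc5d (chr9:42264251-42264550, minus strand) and Nsdhl (chrX:72918271-72918570, plus strand).
Insig1: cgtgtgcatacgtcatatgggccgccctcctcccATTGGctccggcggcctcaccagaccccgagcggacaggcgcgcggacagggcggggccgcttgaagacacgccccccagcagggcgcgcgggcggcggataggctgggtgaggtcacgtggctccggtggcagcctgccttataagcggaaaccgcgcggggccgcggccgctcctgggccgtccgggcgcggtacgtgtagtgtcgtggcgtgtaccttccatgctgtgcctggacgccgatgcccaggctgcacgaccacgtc
Sc5d: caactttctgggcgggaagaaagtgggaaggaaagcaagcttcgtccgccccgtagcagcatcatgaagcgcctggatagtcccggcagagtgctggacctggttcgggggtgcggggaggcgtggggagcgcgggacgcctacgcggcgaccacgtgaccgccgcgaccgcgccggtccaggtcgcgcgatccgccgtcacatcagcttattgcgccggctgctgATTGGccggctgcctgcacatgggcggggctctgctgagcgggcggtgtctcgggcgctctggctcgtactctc
Nsdhl: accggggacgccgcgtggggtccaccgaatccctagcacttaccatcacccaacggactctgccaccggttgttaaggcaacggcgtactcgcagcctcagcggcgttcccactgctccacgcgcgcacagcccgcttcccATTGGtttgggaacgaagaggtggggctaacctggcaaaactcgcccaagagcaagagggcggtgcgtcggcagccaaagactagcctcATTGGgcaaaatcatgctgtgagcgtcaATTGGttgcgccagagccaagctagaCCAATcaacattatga
Relative to the annotated start, the first base of TCACNCCA is at -137 in Hmgcs1, -177 in Msmo1 and -162 in Srebf2. Nsdhl held 4 CCAAT boxes, and Insig1 and Sc5d 1 each. The 6 printed promoters were picked after the values were seen.

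Part of the pathway was lower in STZ livers. In limma, 10 of the 26 genes fell at an adjusted p under 0.05 and 0 rose (19 of the 26 had an unadjusted p under 0.05, against 20.8% of all genes). Among all 19938 genes, 4.04% fell and 5.09% rose, or 9.12% in either direction. The genes that fell were Pmvk, Mvd and Fdps of the mevalonate part, Tm7sf2, Lbr, Nsdhl and Sc5d of the sterol part, and Insig1, Stard4 and Scap among the regulators and carriers. The values of the 6 STZ livers lay wholly below those of the 7 controls for 6 of the 26 genes, against 1.56% of all genes. They lay wholly above for 0 of the 26, against 2.30% of all genes. The sizes were moderate, with the largest decreases leaving 65.2% (Stard4), 66.1% (Nsdhl) and 67.2% (Insig1) of the control signal. Of the 19 measured enzymes, 18 had a difference below 0, and their median was -0.32, beside a median of -0.0063 over all genes. Without STZ replicate 2, 9 genes of the 26 fell, 1 rose (Srebf2) and the median of the enzymes was -0.17. In that fit 664 of all 19938 genes fell and 979 rose.

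**Figure D1:**
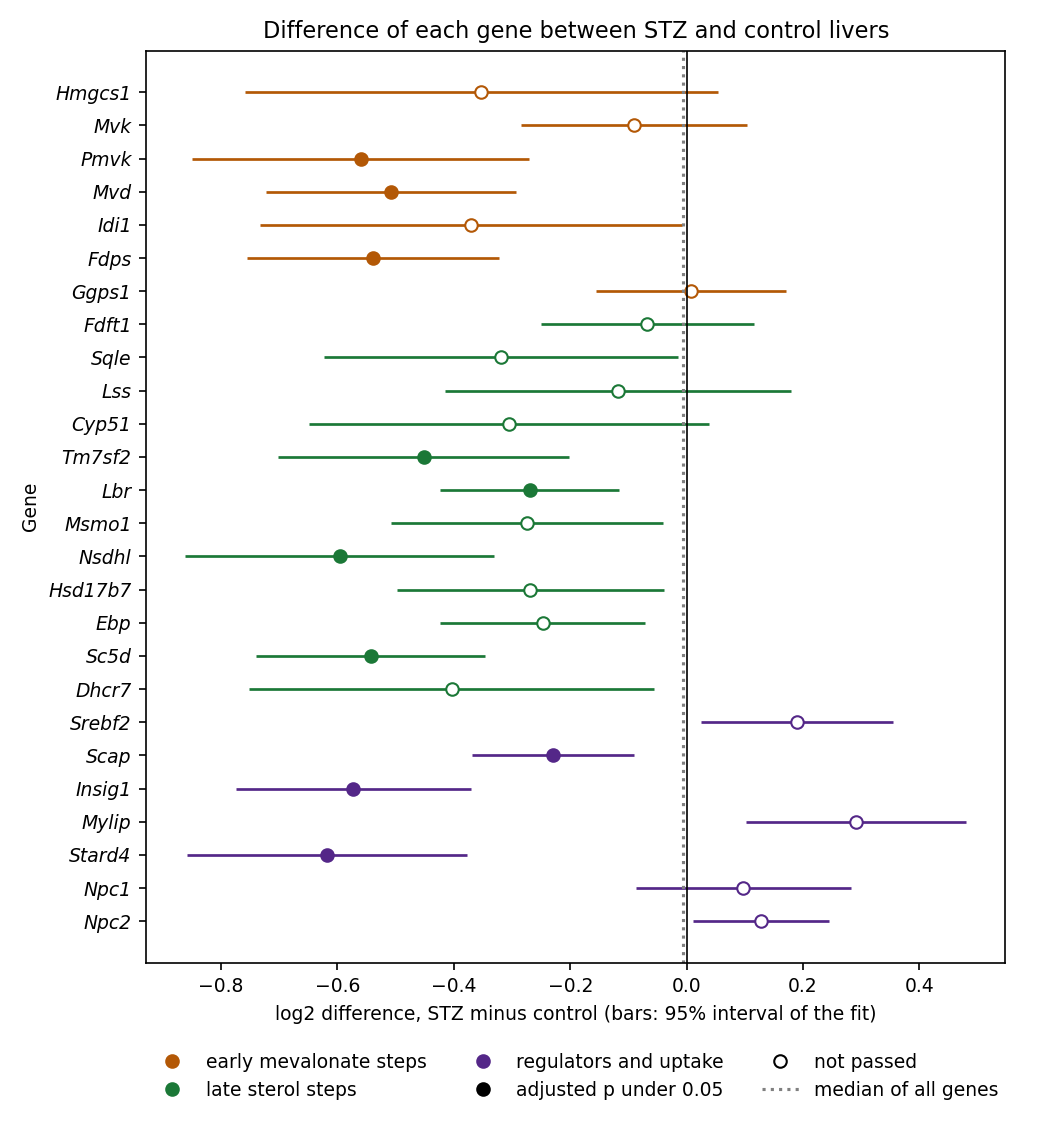
Difference of each measured gene between STZ and control livers on the log2 scale, with the 95% interval of the fit as bars, colours for the 3 roles, filled points at an adjusted p under 0.05 and a dotted line at the median of all genes. All 10 filled points lie below 0, and 4 of the 7 regulators lie above it.

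The mevalonate part showed 3 of 7 measured genes lower and 0 higher, against 4.04% and 5.09% of all genes. Its median difference was -0.37, or -0.17 without STZ replicate 2. Fdps makes farnesyl diphosphate, the branch point between sterols and prenylation. Its values were 10.66 to 11.48 with a median of 11.19 in STZ livers, against 11.55 to 11.76 with a median of 11.71 in control livers. All 6 STZ livers lay below every control, and the difference was -0.54 ± 0.10 (log2, SE of the fit, adjusted p = 0.00283 in limma). Mvd, the mevalonate diphosphate decarboxylase, ranged from 7.81 to 8.56 (median 8.36) in STZ livers and from 8.65 to 9.04 (median 8.81) in control livers. It likewise had no overlap, at -0.51 ± 0.10 (adjusted p = 0.00418). Pmvk, the phosphomevalonate kinase one step earlier, ranged from 7.45 to 8.43 (median 7.90) in STZ livers and from 8.03 to 8.74 (median 8.53) in control livers. The groups overlapped because control replicate 2 was low at 8.03, and 4 of 6 STZ livers lay below it. The Pmvk difference was -0.56 ± 0.14 (adjusted p = 0.0154), and the exact rank-sum test gave an adjusted p of 0.0629.

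The 4 other mevalonate genes did not pass. Hmgcs1, the cytosolic HMG-CoA synthase that commits acetyl units to the pathway, ranged from 9.80 to 11.38 (median 10.93) in STZ livers and from 10.90 to 11.59 (median 11.10) in control livers. Its difference of -0.35 ± 0.19 had a 95% interval of -0.76 to 0.05. The lowest value was STZ replicate 2, and without it the difference was -0.14 ± 0.12. Idi1, the isopentenyl diphosphate isomerase, was between 9.24 and 10.71 (median 10.42) in STZ livers and between 10.36 and 10.82 (median 10.64) in control livers. Its 2 probe sets, which name no other gene, differed by -0.37 and -0.38. Here too STZ replicate 2 was lowest, and the difference of -0.37 ± 0.17 (adjusted p = 0.225) became -0.17 ± 0.09 without it. For mevalonate kinase Mvk the difference was -0.09 ± 0.09, with an interval of -0.28 to 0.10, and 0.0025 without STZ replicate 2. Ggps1, which lengthens farnesyl diphosphate for protein prenylation and so stands off the sterol route, differed by 0.0079 ± 0.077, with an interval of -0.16 to 0.17.

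**Figure D2:**
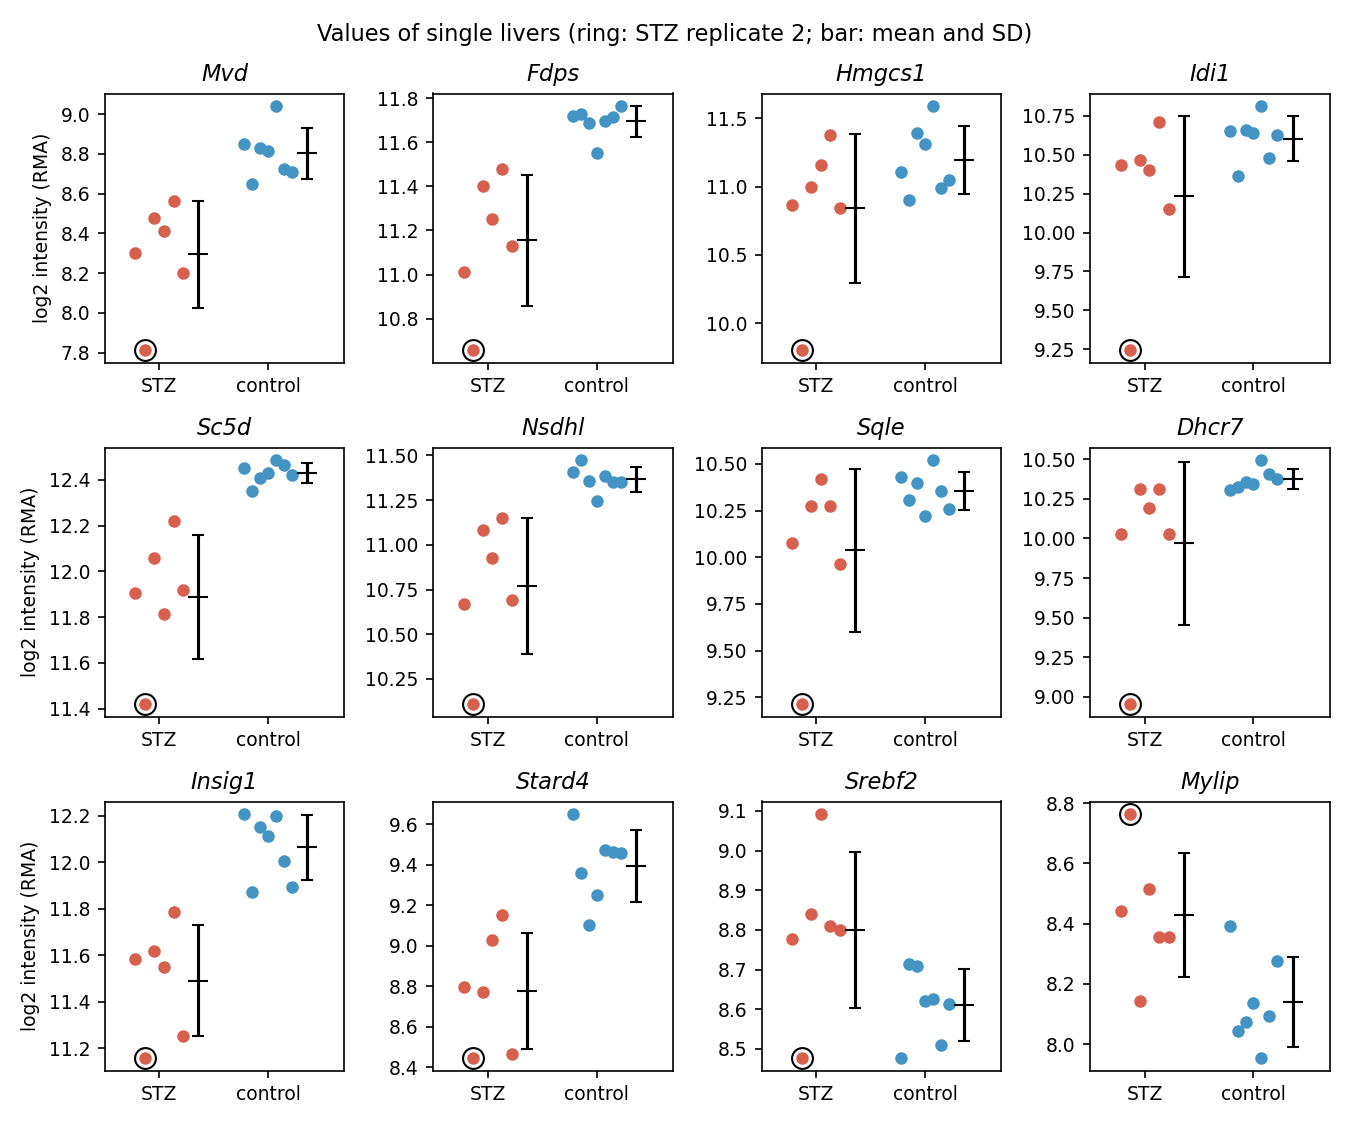
Log2 intensities of 12 genes in each STZ liver (left, n = 6) and control liver (right, n = 7), with mean and SD as bars and STZ replicate 2 ringed. Mvd, Fdps, Sc5d, Nsdhl and Insig1 show no overlap of the groups, and in Hmgcs1, Idi1, Sqle and Dhcr7 the ringed liver lies far below the other STZ livers.

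In the sterol part 4 of 12 genes fell and 0 rose, against 4.04% and 5.09% of all genes. The median was -0.29 (-0.17 without STZ replicate 2), and all 12 differences were below 0. Sc5d, the sterol desaturase near the end of the route, had the smallest p of the enzymes. It ranged from 11.42 to 12.22 (median 11.91) in STZ livers and from 12.35 to 12.49 (median 12.43) in control livers. Every STZ liver lay below every control, and the difference was -0.54 ± 0.09 (adjusted p = 0.00136). Nsdhl, the dehydrogenase that removes carbon during demethylation of the ring, ranged from 10.11 to 11.15 (median 10.81) in STZ livers and from 11.24 to 11.48 (median 11.36) in control livers. Its groups did not overlap either, at -0.60 ± 0.13 (adjusted p = 0.00593). A pair of enzymes reduces the same sterol double bond, Tm7sf2 in the endoplasmic reticulum and Lbr, the lamin B receptor of the nuclear envelope. Tm7sf2 ranged from 9.96 to 10.96 (median 10.72) in STZ livers and from 11.02 to 11.11 (median 11.08) in control livers, with no overlap (-0.45 ± 0.12, adjusted p = 0.0227). Lbr ranged from 7.44 to 7.84 (median 7.68) in STZ livers and from 7.77 to 8.14 (median 7.88) in control livers, and 5 of 6 STZ livers lay below all controls (-0.27 ± 0.07, adjusted p = 0.0273). The order of livers differed between them, since STZ replicate 2 was lowest for Tm7sf2 and STZ replicate 6 for Lbr. Lbr no longer passed when STZ replicate 6 or control replicate 1, 2 or 5 was omitted (adjusted p = 0.0513 to 0.0679), in the exact rank-sum test (0.0629), or with STZ replicates 1 to 4 only (-0.19, adjusted p = 0.130). Tm7sf2 lost its call without STZ replicate 4 (adjusted p = 0.0562).

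The 8 other sterol enzymes did not pass, and the groups overlapped for all 8. Dhcr7, which makes cholesterol from 7-dehydrocholesterol, ranged from 8.95 to 10.31 (median 10.11) in STZ livers and from 10.31 to 10.50 (median 10.36) in control livers. Its difference was -0.40 ± 0.16 (adjusted p = 0.158), and -0.20 ± 0.06 without STZ replicate 2 (adjusted p = 0.0670). Sqle, the squalene epoxidase and a control point of the late route, ranged from 9.21 to 10.42 (median 10.17) in STZ livers and from 10.22 to 10.52 (median 10.35) in control livers. STZ replicate 2 was again lowest, and the difference was -0.32 ± 0.14, or -0.15 ± 0.08 without it. Lanosterol demethylase Cyp51 was also lowest in STZ replicate 2, at -0.31 ± 0.16 over all livers and -0.12 ± 0.09 without that liver. Ebp, the sterol isomerase, came closest to passing at -0.25 ± 0.08 (adjusted p = 0.0787), with 5 of 6 STZ livers below all controls, and it passed without STZ replicate 1 (adjusted p = 0.0456). Without STZ replicate 2 the difference in Ebp was -0.16 ± 0.06 (adjusted p = 0.0931). The methyl oxidase Msmo1 (-0.27 ± 0.11) and the ketosteroid reductase Hsd17b7 (-0.27 ± 0.11) had 95% intervals that reached -0.04. Without STZ replicate 2 their differences were -0.17 and -0.16. For squalene synthase Fdft1, the first enzyme committed to sterols, the interval was -0.25 to 0.11. The brighter probe set of Fdft1, used here, differed by -0.07 and the dimmer by -0.10. For lanosterol synthase Lss the interval was -0.42 to 0.18. Both Fdft1 and Lss were above all controls in 1 STZ liver and had differences of 0.01 and 0.03 without STZ replicate 2.

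Among the regulators and carriers 3 of 7 fell and 0 rose, against 4.04% and 5.09% of all genes. The median was 0.10 (0.06 without STZ replicate 2 and 0.05 without control replicate 3). Insig1, which holds the Scap complex in the endoplasmic reticulum and is itself a target of SREBP, ranged from 11.16 to 11.79 (median 11.57) in STZ livers and from 11.87 to 12.21 (median 12.11) in control livers. The groups did not overlap, and the difference of -0.57 ± 0.10 had an adjusted p of 0.00111 in limma. Stard4, a soluble sterol carrier, ranged from 8.44 to 9.15 (median 8.78) in STZ livers and from 9.10 to 9.65 (median 9.46) in control livers. STZ replicate 5 alone reached the control range, and the difference was -0.62 ± 0.11 (adjusted p = 0.00224). Scap ranged from 9.28 to 9.65 (median 9.60) in STZ livers and from 9.62 to 9.93 (median 9.78) in control livers. The difference in Scap was -0.23 ± 0.07 (adjusted p = 0.0375). It no longer passed (adjusted p = 0.0516 to 0.0721) when any 1 of STZ replicates 1, 2 and 6 or control replicates 1, 2, 3, 4, 6 and 7 was omitted.

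Srebf2, the gene of the transcription factor itself, had a difference above 0. It ranged from 8.48 to 9.09 (median 8.81) in STZ livers and from 8.48 to 8.71 (median 8.62) in control livers. In 5 of 6 STZ livers Srebf2 lay above every control, and STZ replicate 2 lay just below the lowest one. The difference was 0.19 ± 0.08 (adjusted p = 0.165), and without STZ replicate 2 it was 0.25 ± 0.07 and passed (adjusted p = 0.0247). Mylip, a ubiquitin ligase that removes lipoprotein receptors and is induced by the oxysterol receptors, ranged from 8.14 to 8.76 (median 8.40) in STZ livers and from 7.95 to 8.39 (median 8.09) in control livers. It missed the threshold at 0.29 ± 0.09 (adjusted p = 0.0530), and passed without STZ replicate 3 (0.0169) and without control replicate 1 (0.0298). The highest Mylip value was that of STZ replicate 2, and without this liver the difference was 0.22 ± 0.08 (adjusted p = 0.106). The exact rank-sum test gave an adjusted p of 0.122 for Mylip. Npc1 and Npc2 together move cholesterol out of lysosomes. Npc1 differed by 0.10 ± 0.09, with an interval of -0.09 to 0.28 (0.06 without STZ replicate 2 and 0.05 without control replicate 3), and Npc2 by 0.13 ± 0.06 (adjusted p = 0.191), and both groups overlapped in each.

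The share of genes that fell was 42.9% for the mevalonate genes, 33.3% for the sterol enzymes and 42.9% for the regulators and carriers. These shares rest on 3 of 7, 4 of 12 and 3 of 7 genes, and 4.04% of all genes fell. The medians of the 3 roles were -0.37, -0.29 and 0.10, and without STZ replicate 2 they were -0.17, -0.17 and 0.06. These differences between roles were not tested, and members of a role share the same 13 livers.

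**Figure D3:**
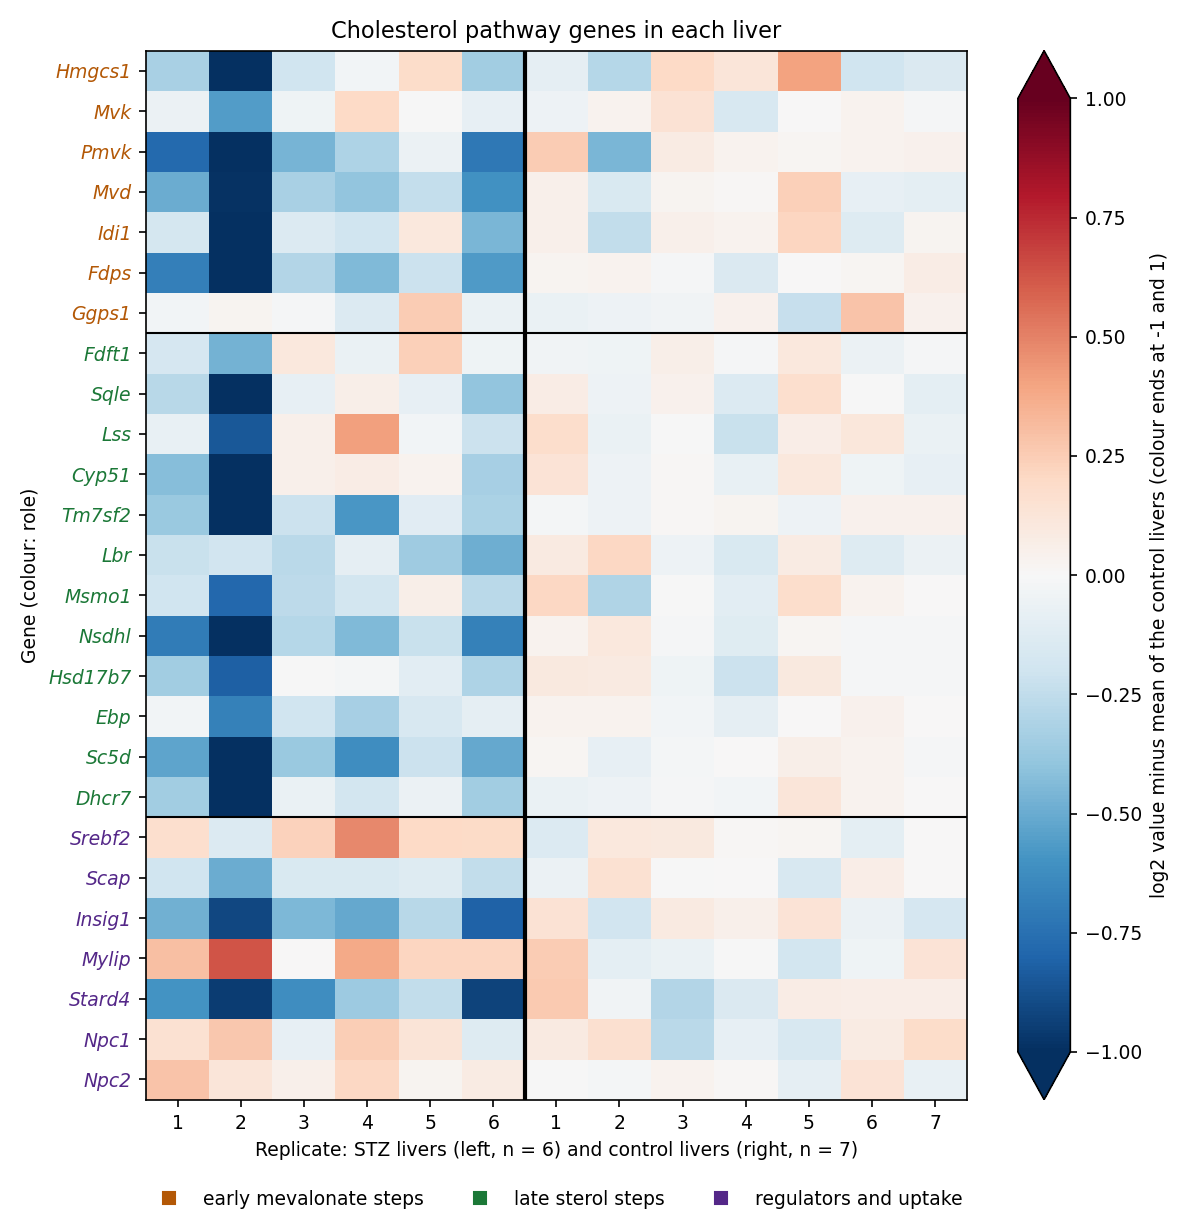
Log2 value of each gene in each liver minus the mean of the 7 control livers, STZ replicates 1 to 6 on the left and control replicates 1 to 7 on the right, with genes ordered by role and a colour scale that ends at -1 and 1. STZ replicate 2 is the lowest of the 13 livers for 17 of the 19 enzymes, and STZ replicate 5 averages -0.05 over them.

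The STZ livers spread more widely than the controls. Averaged over the 19 enzymes, STZ replicates 1 to 6 lay at -0.33, -0.91, -0.16, -0.17, -0.05 and -0.36 relative to the control mean. The 7 controls lay between -0.07 and 0.08. STZ replicate 2 was therefore far below all other livers, and STZ replicate 5 fell inside the control range. STZ replicate 2 was the lowest of 13 livers for 17 of 19 enzymes, the exceptions being Ggps1 and Lbr, and also for Srebf2, Scap, Insig1 and Stard4. Among the 6 STZ livers, replicate 5 was highest for 12 of 19 enzymes. The SD was larger in STZ livers than in control livers for 24 of the 26 genes, against 61.6% of all genes. Without STZ replicate 2 it was larger for 20 of the 26, against 56.4% of all genes. Over all genes, pairs of STZ livers correlated at 0.986 to 0.995 and pairs of control livers at 0.993 to 0.997. As deviations from the group means, pairs of the 19 enzymes had a median Pearson correlation of 0.77 over the 13 livers. That value was 0.38 over the 12 livers without STZ replicate 2. Pairs share the same livers and arrays, so these correlations describe the data and are not tests.

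STZ replicate 2 also had the highest summed level of Kupffer cell and macrophage markers (12.99) of all livers, and the lowest red cell sum (8.46). In the macrophage list it was highest for Vsig4, Cd5l, Timd4 and Csf1r. Other STZ livers were highest for Clec4f, Adgre1, Cd68, C1qa and Marco. Alas2, which carries the red cell sum, was lowest in STZ replicate 2 (7.85) and highest among STZ livers in replicate 5 (10.30). Slc4a1, the other red cell marker, was highest among STZ livers in replicate 2 (6.93). The 8 stellate cell and fibroblast markers summed to 12.73 in STZ replicate 2, against 12.33 to 12.46 in control livers. That sum was carried by Dcn (12.29), while Reln (8.75) was the lowest of all livers and Lrat (8.53) lay below every control. Over all STZ livers Dcn rose (0.35) and Lrat fell (-0.47). The hepatocyte sum of STZ replicate 2 was 16.03, inside the range of the controls. The 7 hepatocyte markers lay at percentiles 98.6 to 100 of mean level, and the highest value in the data was 14.14. Whether a sum of such bright genes can show a change in hepatocyte share was not tested. The part of these markers in the low enzyme values of that liver was not tested.

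**Figure D4:**
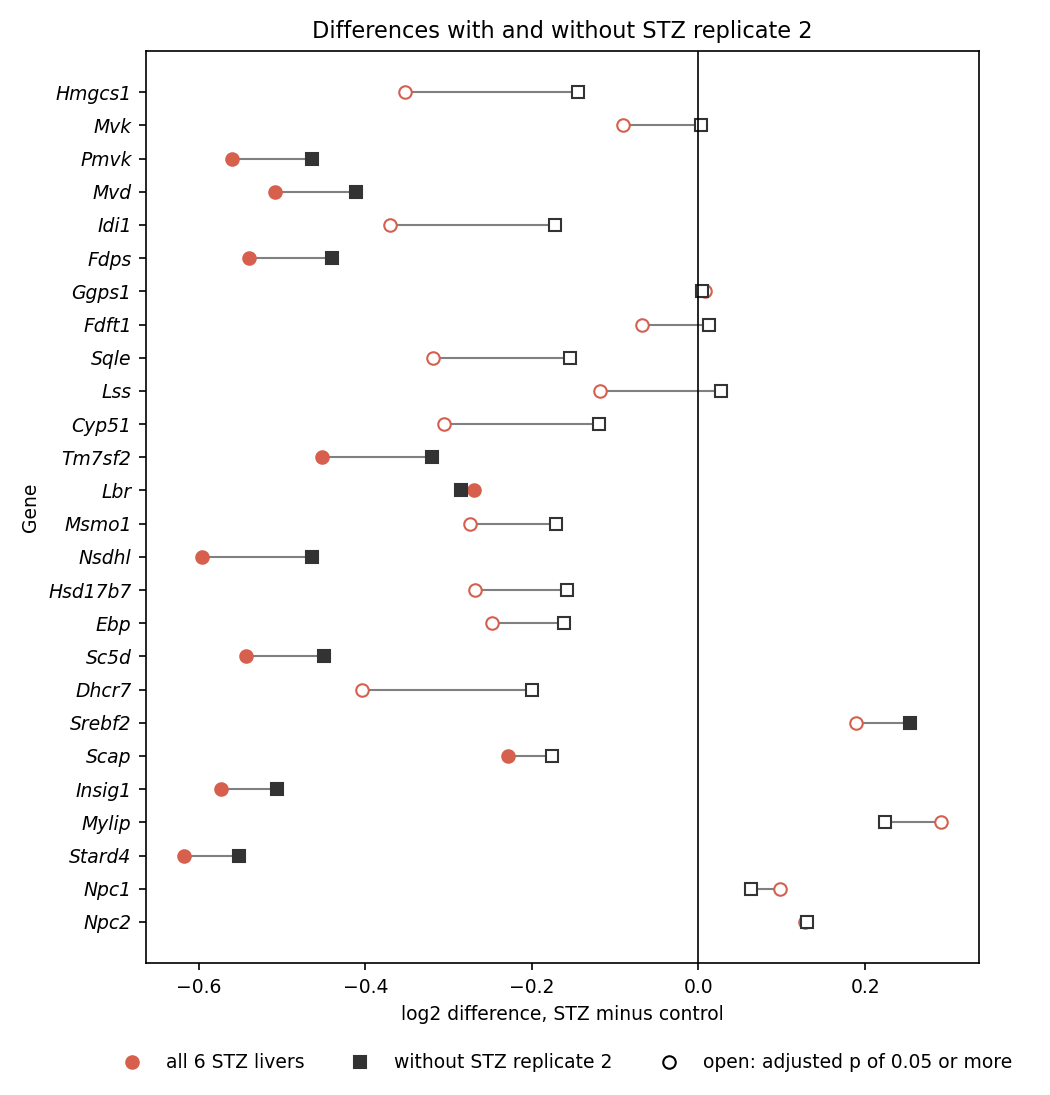
Log2 difference of each gene between STZ and control livers with all 6 STZ livers (circles) and without STZ replicate 2 (squares), filled where the adjusted p was under 0.05. Pmvk, Mvd, Fdps, Tm7sf2, Lbr, Nsdhl, Sc5d, Insig1 and Stard4 stay filled, Scap opens and Srebf2 becomes filled.

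The 9 genes that passed in both fits had differences of -0.29 to -0.55 without that liver. Then 6 of the 26 genes still lay wholly below the controls, against 355 of all 19938 genes. For Srebf2 the 5 STZ livers left lay wholly above the controls, at 8.777 to 9.093 against 8.477 to 8.715. This separation was given in advance, since STZ replicate 2 was the only STZ liver not above every control for Srebf2. The share of all genes wholly above without that liver was not counted. The 7 enzymes of these 9 genes were Pmvk (-0.46), Mvd (-0.41), Fdps (-0.44), Tm7sf2 (-0.32), Lbr (-0.29), Nsdhl (-0.46) and Sc5d (-0.45). For the other 12 enzymes the differences without that liver were -0.20 (Dhcr7) to 0.03 (Lss).

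Genes around the pathway were taken from 4 lists of related function. Of 14 further genes of sterol sensing and SREBP processing, 7 were measured, with a median of -0.03. In limma 3 of the 7 fell and 0 rose, against 4.04% and 5.09% of all genes. The 3 were Erlin1 (-0.34 ± 0.07), which takes part in sterol-regulated degradation at the endoplasmic reticulum, the sterol-binding protein gene Tmem97 (-0.24 ± 0.06), and Mbtps1 (-0.21 ± 0.05), the protease that makes the first cleavage of SREBP. Insig2, the other Insig gene, was singled out after its values were seen. It was 11.28 to 11.78 in STZ livers and 10.37 to 11.82 in control livers, with a difference of 0.50 ± 0.22 (adjusted p = 0.211). None of 11 measured genes of the isoprenoid branch, which use the diphosphates for prenylation, ubiquinone and dolichol, passed in limma. At an unadjusted p under 0.05 there were 2, against 20.8% of all genes. The smallest p there was that of the farnesyltransferase subunit Fntb (-0.21 ± 0.09, adjusted p = 0.163), and the median was -0.08 (-0.02 without STZ replicate 2).

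Among 14 measured genes of sterol efflux, storage and oxysterol receptors, 4 rose and 2 fell, with a median of -0.05. Of all genes 5.09% rose and 4.04% fell. Abcg5, one partner of the canalicular sterol exporter, rose by 0.69 ± 0.19 (adjusted p = 0.0302), with 4 of 6 STZ livers above every control. It did not pass without STZ replicate 2 (adjusted p = 0.0711). The other partner Abcg8, named although outside the rule given below, did not pass in limma (0.48 ± 0.19, adjusted p = 0.134). The high-density lipoprotein receptor Scarb1 rose by 0.57 ± 0.10, and all 6 STZ livers lay above every control. Abcg1 rose by 0.34 ± 0.09, and the acyltransferase gene Lpcat3 fell by 0.37 on the log2 scale. Outside the rule for named genes given below, Lcat rose (0.19 ± 0.05) and Abca1 fell (-0.28 ± 0.06), each with no overlap. The lipogenic genes listed as SREBP-1c targets fell in 15 of 15, with a median of -0.91, and in 14 of 15 without STZ replicate 2. The activity of SREBP-1c was not measured, and its own gene Srebf1 is in the list. The largest decreases were in Thrsp (-2.36 ± 0.33), Me1 (-1.95 ± 0.29), Gpam (-1.42 ± 0.12) and Acacb (-1.37 ± 0.23). Averaged over these 15 genes, STZ replicates 2 and 5 were again the lowest and the highest STZ livers, at -1.61 and -0.48, against -0.34 to 0.16 in control livers. The difference in size between the cholesterol and the lipogenic genes was not tested.

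**Figure D5:**
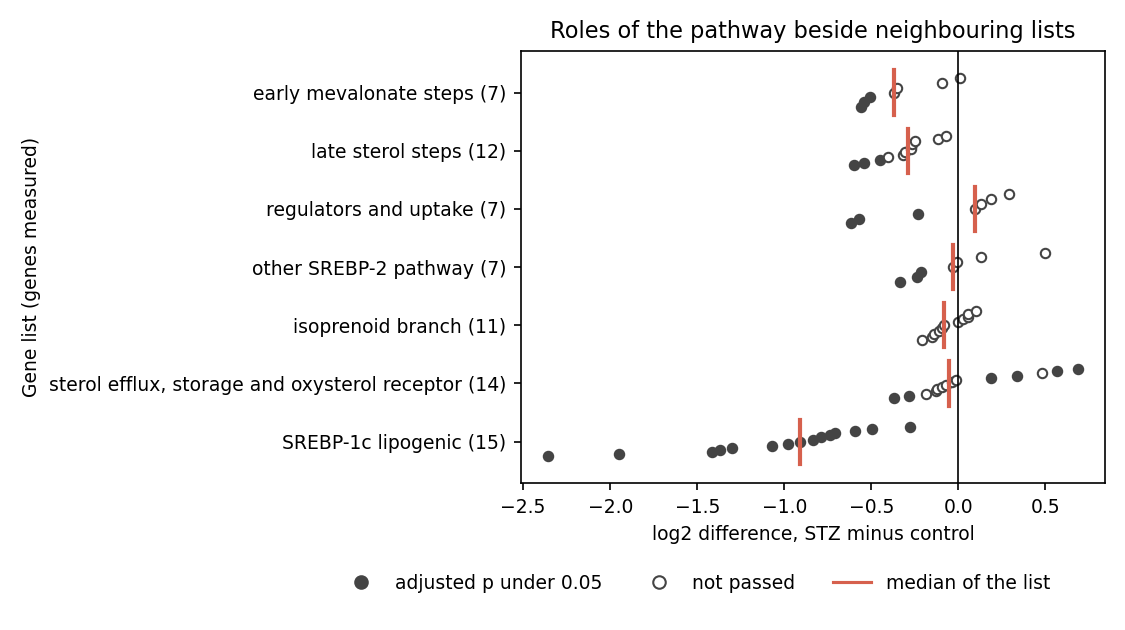
Log2 difference between STZ and control livers for each gene of the 3 roles and of 4 lists around the pathway, with the number measured in brackets, filled points past an adjusted p of 0.05 and red lines at each median. All 15 lipogenic points are filled and below 0, and the isoprenoid points are open and within 0.21 of 0.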

How the data were processed

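Liver RNA of 6 STZ and 7 control mice was measured on 1 array each, and groups and replicate numbers came from the labels. The authors deposited log2 intensities of 35556 probe sets, and the submitters' processing notes name Expression Console 1.2 and RMA (robust multi-array average) as the tools. Since RMA gives all arrays a common distribution, it hides any change in total RNA per cell. No detection calls were used, and precision is limited by the number of arrays. The labels name no processing batch.

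The platform annotation named 1 gene for 21789 probe sets, and each of 19938 genes was represented by its brightest probe set (mean of the 13 arrays). The groups were compared in limma 3.58.1 under R 4.3.3 (lmFit and eBayes, 2-sided, 11 residual degrees of freedom, no covariate), with Benjamini-Hochberg adjustment over all 19938 genes called at 0.05. A difference is the STZ mean minus the control mean, and list medians carry no test. The members, the lists and the rule for named genes (all members, and in each list up to 4 passing genes with the largest absolute difference or else the gene with the smallest p) were chosen with earlier results of these data known. Tested on simulated arrays with each gene's own mean and spread, 86% of 100 genes changed by 0.5 and 99% of 100 changed by 1 log2 unit were recovered, with 9 calls among the unchanged genes of 19938. These shares do not give the recovery for the pathway genes. Their SEs ran from 0.055 (Npc2) to 0.19 (Hmgcs1), beside a median of 0.069 over all genes. Alternatives were a filter on dim genes, the mean of all probe sets, trend and robust variance, the exact rank-sum test, median centring, array weights, STZ replicates 1 to 4 only, a replicate block, and leaving out each array. Promoters came from RefSeq's GRCm38.p6 table, where no passing gene met the planned condition for printing, which was to hold TCACNCCA.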

Additional observations from a re-analysis of the deposited data

Results flagged for a closer look

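In 52 tests of a single liver against the rest of its group (26 genes in each group), 5 values, from 3 livers, lay apart by Dixon's 95% criterion, and chance gives about 1 in 20 such tests. STZ replicate 2 was low for Hmgcs1 (9.80, next 10.84), Dhcr7 (8.95, next 10.03) and Scap (9.29, next 9.53). Control replicate 2 was low for Pmvk (8.03, next 8.51), and control replicate 4 was low for Fdps (11.55, next 11.69).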

How the results depend on the processing

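The number of genes of the pathway that fell was 7 in the exact rank-sum test and 9 or 10 in the 7 other alternatives that kept all or most arrays, and 8 to 10 when 1 array was left out, beside 10 in the reported fit. The number that rose was 0 in that fit, 1 among genes brighter than the median gene and with trend and robust variance (Mylip in both), and 0 to 1 when 1 array was left out. Over all genes the exact rank-sum test called 1088 against 1819. When 1 array was left out the median difference was -0.466 to -0.1724 for mevalonate genes, -0.3534 to -0.1663 for sterol enzymes and 0.0522 to 0.1375 for regulators and carriers, and the values nearest 0 of the first pair came without STZ replicate 2. Mvd, Fdps, Nsdhl, Sc5d, Insig1 and Stard4 kept their call in all 21 alternatives (adjusted p = 0.00018 to 0.0427). Signs turned only in differences near 0 that had not passed. Ggps1 was -0.0356 with STZ replicates 1 to 4 only, -0.0063 with array weights, -0.0031 with median centring and -0.041 to 0.056 when 1 array was left out. With 1 array left out Mvk ranged from -0.1491 to 0.0025, Fdft1 from -0.129 to 0.0126 and Lss from -0.2238 to 0.0274. The causes were not tested. The labels do not tie equal replicate numbers together, and 1 of 6 STZ livers correlated best with the control of its own number. A count of best matches cannot decide whether livers were paired. With the replicate number as a block, which drops control replicate 7 for want of a partner and leaves 12 livers, 10 genes fell and 0 rose, Msmo1 passing (-0.27, adjusted p = 0.0381) and Scap not (0.149), and 1256 genes were called over all.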

Other observations

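Among 9943 genes brighter than the median gene and outside the pathway, those whose deviations from the group means were most like the mean of the 19 enzymes over the 13 livers were Pold2, Rfesd, Sil1 and Rdh11, followed by Zfp943, Tbck, Hmgb3, Eral1, Phkb and Klhl7 (Pearson correlations of 0.916 to 0.935). For the first 4, Pearson correlations were 0.95, 0.95, 0.94 and 0.94, and Spearman's rho was 0.78, 0.88, 0.88 and 0.68. Without STZ replicates 2 and 5, which lay farthest from the median, the Pearson values were 0.79, 0.73, 0.72 and 0.65. These genes were picked as the most alike of many and carry no test. Of the 4, Rdh11, a retinol dehydrogenase gene, fell in STZ livers (-0.89 ± 0.18, adjusted p = 0.00518 in limma), and Pold2 (-0.22), Rfesd (-0.06) and Sil1 (-0.06) did not pass.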
